A study of Mus musculus with 26 samples.

Results

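The genes described here are 65 ligands and receptors of the classical axon guidance families, taken from the 21119 rows of the count table by symbol: semaphorins of classes 3 to 7, plexins, ephrins, Eph receptors, Slits, Robos, netrins and Unc5 receptors. RNA sequencing gave their counts in 26 aortic libraries of C57BL6/J mice whose vessel had been wounded by mechanical pressure. The injured 48 h group held the lumen flush of the wounded abdominal segment in each of 9 mice, and the injured 3 h group held the same kind of flush from 5 other mice. For the uninjured 48 h group the thoracic segment of those 9 mice from the injured 48 h group was flushed, so these mice too had been wounded in the abdominal segment. The tissue 48 h group held the abdominal wall that remained after the flush in 3 of those 9 mice. A flush is lysis buffer passed through the lumen to take up the endothelial lining. No sham operation or unwounded animal was part of these groups, and injury therefore cannot be told apart from aortic segment when injured flushes are set against uninjured ones. The 48 h and 3 h injured flushes share the segment but came from different mice. None of these groups held an uninjured flush at 3 h. When injured 3 h flushes are set against uninjured ones, time and mouse therefore differ along with segment and injury. Below, rose and fell give the sign of a difference between groups and name no cause.

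Axon guidance proteins steer growing nerve fibres by attracting or repelling them, and the same families guide vessel growth and endothelial migration. Semaphorins signal through plexins, with neuropilins as partners for most class 3 members. Ephrins are bound to the cell surface and signal on contact with Eph receptors, in both directions for the B class. Netrins bind Dcc, neogenin and Unc5 receptors, and Slits bind Robos. In vessels, ephrin-B2 is a marker of arterial endothelium and its receptor EphB4 of venous endothelium.

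Injured 48 h flushes had totals of 3904901 to 11982411 counts and injured 3 h flushes 2657169 to 4346847, against 1755773 to 5294304 for uninjured flushes and 13853003 to 15560008 for tissue. Endothelial character was checked with 12 marker genes, whose summed level was 12871 to 19774 CPM (counts scaled to library size) in injured 48 h flushes, 22091 to 27148 CPM in injured 3 h flushes, 21248 to 25697 CPM in uninjured flushes and 3501 to 5430 CPM in tissue. All 12 had counts in each group. Of these endothelial markers 8 fell and 2 rose at 48 h against uninjured flushes, and 12 smooth muscle markers summed to 2108 to 3239 CPM in injured 48 h flushes, 2359 to 2912 CPM in injured 3 h flushes and 912.6 to 2418 CPM in uninjured flushes. One injured 48 h library, from mouse E2A, stood apart: its 10 fibroblast markers summed to 10578 CPM, against 472.2 to 1869 CPM in the other 8. Values without it are given where a result rests on it. The libraries are bulk RNA, so fewer cells of a type and less RNA per cell cannot be told apart.

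Of the 65 members, 48 had enough counts to be tested and 17 did not. Epha8, Robo2, Robo3, Slit1, Ntn5 and Plxnb3 were at 0 in all 26 libraries, and the other 11 untested members held between 1 and 166 counts summed over all libraries. Ntn3 is not a row of the table. Each injured 48 h flush held counts for 32 to 48 members, each injured 3 h flush for 27 to 35, each uninjured flush for 28 to 41 and each tissue library for 56 to 57. Counts in tissue and in no flush were found for 5 members, and no member had counts in a flush and none in tissue.

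Levels between genes were compared as CPM per kb of exon. At 48 h the injured and the uninjured flushes were led by 2 ephrins. Efnb2, which encodes ephrin-B2, averaged 111.8 ± 18.3 CPM per kb in injured 48 h flushes and 234 ± 52.9 CPM per kb in uninjured flushes (SD, n = 9 each). Efna5, a lipid-anchored ephrin of the A class, followed with 66.8 ± 11.3 CPM per kb in injured 48 h flushes and 127.3 ± 32.7 CPM per kb in uninjured flushes. In injured 3 h flushes the order was another, with Plxna2 at 94.5 ± 26.1, Efna5 at 87.3 ± 9.93, Ntn1 at 65.9 ± 9 and Efnb2 at 65.7 ± 11.5 CPM per kb (SD, n = 5). After the ephrins, uninjured flushes held Plxna2, Plxna4 and Ntn1 at 48.9 ± 8.01, 45.6 ± 8.44 and 41.7 ± 4.02 CPM per kb, levels that did not differ beyond their spread. The leading Eph receptor in uninjured flushes was Epha4 at 29.2 ± 5.56 CPM per kb, with Ephb4 at 18 ± 4.38 CPM per kb. The wall had another order: Slit3 at 72.8 ± 7.27 and Sema3c at 50.9 ± 3.91 CPM per kb stood beside Efnb2 at 49.5 ± 12.9 and Efna5 at 47.9 ± 4.17 CPM per kb (SD, n = 3).

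**Figure D1:**
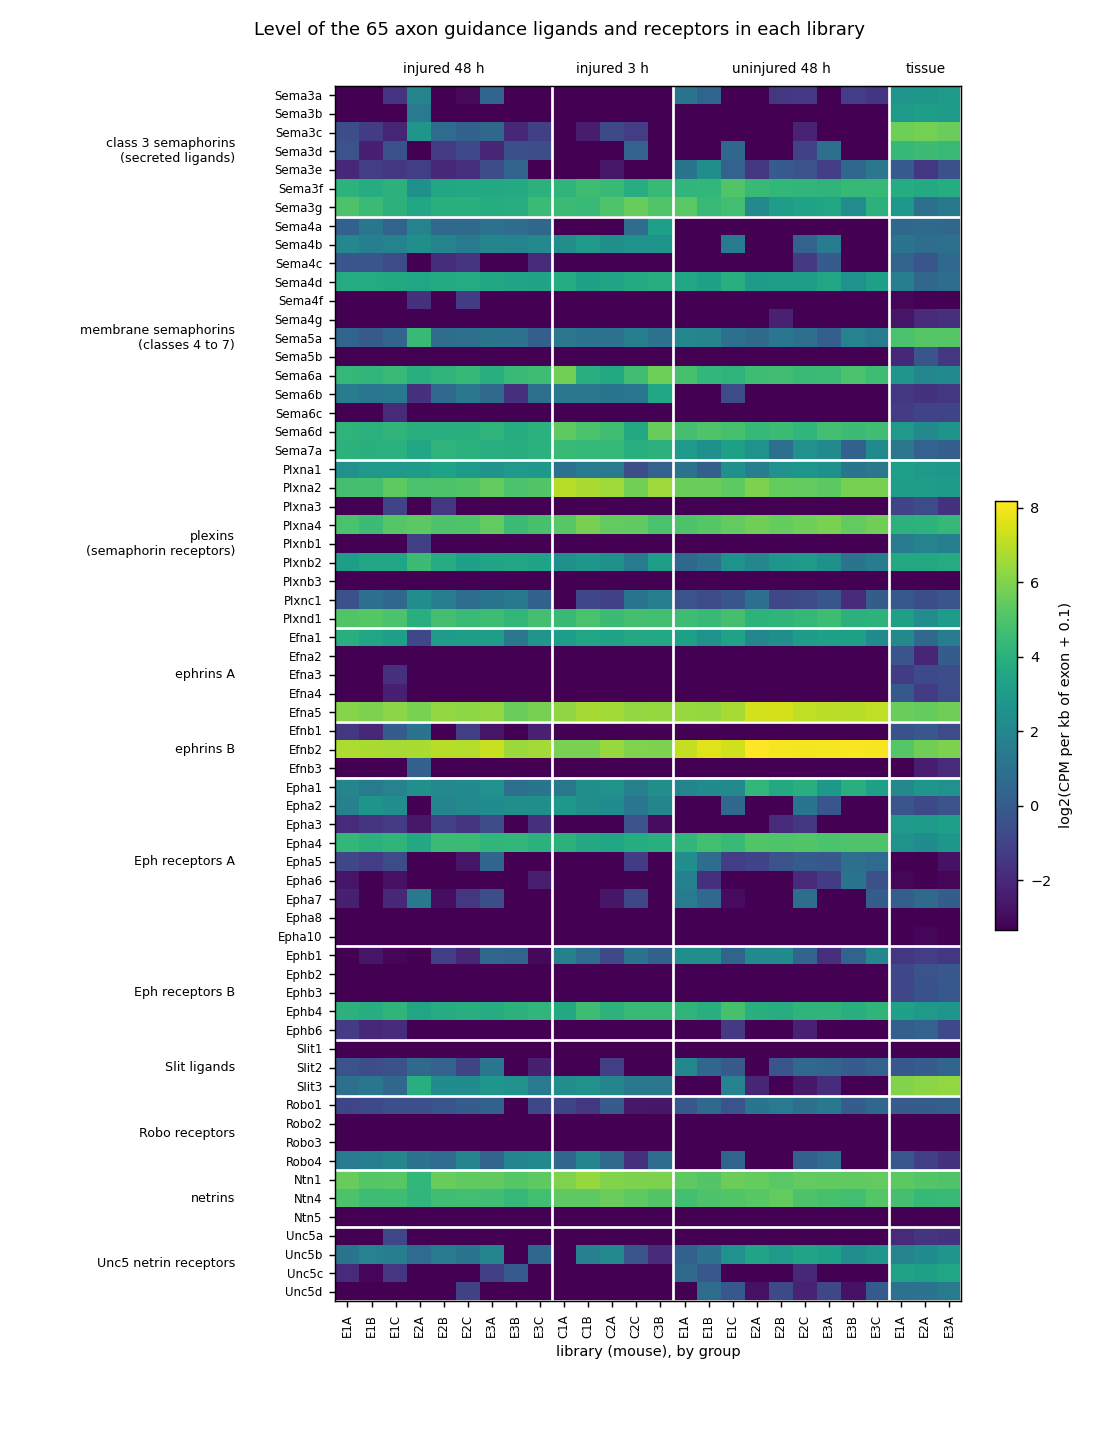
Level of each of the 65 members (rows, ordered by role) in each of the 26 libraries (columns, named by mouse and grouped), as log2 of CPM per kb of exon with 0.1 added; the lowest colour is a gene with no counts. Efnb2 and Efna5 are the brightest rows in the injured 48 h and uninjured flushes, Plxna2 has the highest mean in the injured 3 h flushes, and Slit3, Sema3c, Sema3d and Sema5a are bright in the 3 tissue libraries beside much lower flush levels.

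The promoters of Efnb2, Plxna2, Sema7a and Epha4 are shown because these 4 members had the smallest p in the comparison of injured 3 h with uninjured flushes. Each window runs from 250 bases before to 50 bases after the start that RefSeq lists (build GRCm38.p6), 5′ to 3′ on the gene's own strand. A window was at hand for 56 of the 65 members. Capitals mark matches, on either strand, to an AP-1 motif (TGANTCA), an RBPJ motif (TGGGAA) or a GC box (GGGCGG). No 2 matches in these windows overlapped.
Efnb2, minus strand, chr8:8661193-8661492: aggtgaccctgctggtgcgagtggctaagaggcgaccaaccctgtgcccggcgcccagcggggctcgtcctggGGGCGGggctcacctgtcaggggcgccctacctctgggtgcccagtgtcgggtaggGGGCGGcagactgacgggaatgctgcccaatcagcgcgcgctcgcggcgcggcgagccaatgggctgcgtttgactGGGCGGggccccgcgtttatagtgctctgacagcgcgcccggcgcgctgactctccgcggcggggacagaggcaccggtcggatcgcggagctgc
Plxna2, plus strand, chr1:194619579-194619878: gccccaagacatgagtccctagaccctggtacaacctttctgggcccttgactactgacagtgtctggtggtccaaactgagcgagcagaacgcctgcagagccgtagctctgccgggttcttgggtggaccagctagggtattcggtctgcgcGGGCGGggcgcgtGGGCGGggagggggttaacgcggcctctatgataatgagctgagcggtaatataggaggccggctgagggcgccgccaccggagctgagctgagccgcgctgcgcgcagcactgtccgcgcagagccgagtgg
Sema7a, plus strand, chr9:57939862-57940161: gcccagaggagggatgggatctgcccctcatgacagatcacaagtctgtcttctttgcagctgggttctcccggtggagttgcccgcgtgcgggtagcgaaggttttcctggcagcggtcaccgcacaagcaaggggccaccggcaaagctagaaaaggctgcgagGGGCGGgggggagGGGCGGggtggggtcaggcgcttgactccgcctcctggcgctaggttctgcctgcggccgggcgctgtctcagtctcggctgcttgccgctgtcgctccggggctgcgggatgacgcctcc
Epha4, minus strand, chr1:77515039-77515338: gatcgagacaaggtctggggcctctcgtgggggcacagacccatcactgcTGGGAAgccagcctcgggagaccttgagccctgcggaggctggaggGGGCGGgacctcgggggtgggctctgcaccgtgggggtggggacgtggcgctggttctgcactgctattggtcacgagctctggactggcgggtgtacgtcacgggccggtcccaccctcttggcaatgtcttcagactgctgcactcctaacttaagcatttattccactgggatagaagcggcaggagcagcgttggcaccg
The capitals in the Efnb2 window are 3 GC boxes, and those in the Plxna2 and Sema7a windows are 2 GC boxes each. Epha4 had 1 GC box and 1 RBPJ match. None of these windows held the AP-1 letters. Over 32851 promoters of the same length, 35.7% held a GC box, 25.6% the RBPJ letters and 7.81% the AP-1 letters, and among 72 promoters of members the counts were 50, 17 and 3. A match is a description of letters and says nothing of binding.

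At 48 h after wounding, 13 of the 48 tested members were higher in the injured than in the uninjured flush, where 24.6% of all 13884 tested genes were higher, and 15 were lower, where 18.0% of all were lower (edgeR quasi-likelihood test, Benjamini-Hochberg adjusted p under 0.05). The median log2 fold change was 0.00 over the tested members and 0.18 over all genes. At 3 h, 8 members were higher than in the uninjured flushes, which were taken at 48 h from other mice, against 16.1% of all genes. Lower were 11, against 11.1%. Between the injured flushes, 9 members were higher at 48 h than at 3 h, against 9.70% of all genes, and 6 were lower, against 8.59%. Set against the wall left behind, 13 members were higher in injured 48 h flushes, against 22.0% of all genes, and 10 were lower, against 13.5%. Both injury comparisons use the same uninjured libraries, and 3 of the 4 comparisons use the injured 48 h libraries, so their values are set side by side below and no agreement is counted between them. In the 48 h injury comparison all 9 injured libraries lay above all 9 uninjured ones for 4 of the 48 tested members and below them for 3. The share of all genes with such a separation was not computed, so these counts are not read as a trait of the members.

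Of the 4 tested ephrin ligands, Efnb2 and Efna5 fell at both times, Efnb1 rose at 48 h and Efna1 did not pass the threshold. Efnb2 had 604.1 to 1033 CPM in injured 48 h flushes (median 723.7), 405.3, 403.3, 589.9, 434.9 and 417.1 CPM in the 5 injured 3 h flushes, and 961.1 to 2009 CPM in uninjured flushes (median 1779). All 3 h values lay below every other flush, and at 48 h only 1 injured library reached above the lowest uninjured one. On the log2 scale used for all changes below, with SE, Efnb2 fell by 1.07 ± 0.14 at 48 h (edgeR adjusted p = 1.36e-06) and by 1.83 ± 0.17 at 3 h (edgeR adjusted p = 1.73e-08). It was higher at 48 h than at 3 h by 0.77 ± 0.17, with all 9 libraries at 48 h above all 5 at 3 h (edgeR adjusted p = 0.00162). Efnb2 thus lay lowest at 3 h and between the other flush groups at 48 h. The uninjured level differed by experimental batch, at 961.1, 1359 and 1133 CPM in batch 1 and at least 1725 CPM in batches 2 and 3. Within batches 1, 2 and 3 the 48 h log2 fold change was -0.66, -1.20 and -1.24, and the 3 h log2 fold change was -1.51, -1.85 and -2.12, each past the threshold.

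Efna5 had 191.4 to 321.6 CPM in injured 48 h flushes (median 275.8), 318.3, 404.9, 385, 322.1 and 329.6 CPM in injured 3 h flushes, and 337.2 to 711.2 CPM in uninjured flushes (median 524.8). The 48 h injured and uninjured ranges did not overlap. Efna5 fell by 0.93 ± 0.13 at 48 h (edgeR adjusted p = 4.17e-06) and by 0.54 ± 0.16 at 3 h (edgeR adjusted p = 0.0106). Within batch 1 its 48 h and 3 h log2 fold changes were -0.45 and -0.02, neither past the threshold. Efna1, the other tested A ephrin, had log2 fold changes of 0.07 ± 0.37 at 48 h and 0.56 ± 0.43 at 3 h, neither past the threshold. Efnb1 had counts in 7 of 9 injured 48 h flushes, with 6.85 CPM in E2A as the highest, and was at 0 in all injured 3 h and all uninjured flushes. Its fold at 48 h over uninjured flushes was at least 11.2, against a floor of 3 counts over the group, and it was too low to be tested without E2A.

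Of the 7 tested A-class Eph receptors, 1 rose and 3 fell at 48 h, and 1 rose and 4 fell at 3 h. Epha4, a receptor for both ephrin classes, had 98.4 to 184.1 CPM in injured 48 h flushes (median 151.1), 134.8, 97.7, 87.5, 112.1 and 124.1 CPM in injured 3 h flushes, and 151.1 to 279.1 CPM in uninjured flushes (median 259.4). Its 3 h values all lay below the uninjured range, and the 48 h range overlapped it. Epha4 fell by 0.64 ± 0.12 at 48 h (edgeR adjusted p = 0.000227) and by 1.08 ± 0.15 at 3 h (edgeR adjusted p = 8.33e-06). Its difference between 48 h and 3 h of 0.44 ± 0.15 passed the threshold (edgeR adjusted p = 0.041) but not without C1B, C2A or C2C (edgeR adjusted p = 0.102, 0.122 and 0.0705). Epha2, an ephrin-A receptor also found on endothelium, had 0 to 28.4 CPM in injured 48 h flushes (median 21.9), with 0 in E2A, 10.3 to 32.5 CPM in injured 3 h flushes, and counts in 3 of 9 uninjured flushes, up to 10 CPM. It rose by 2.96 ± 0.79 at 48 h and 3.11 ± 0.86 at 3 h (edgeR adjusted p = 0.00425 and 0.0086), and by 4.25 at 48 h with the mouse as a block.

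Ephb4, the receptor of ephrin-B2, did not pass the threshold in the flushes while its ligand fell. It had 50.2 to 88.3 CPM in injured 48 h flushes (median 67.9), 59.6, 112.1, 81.2, 99.1 and 100.1 CPM in injured 3 h flushes, and 66.1 to 133.2 CPM in uninjured flushes (median 83.2). The groups overlapped, and the log2 fold changes were -0.23 ± 0.14 at 48 h and 0.11 ± 0.16 at 3 h (edgeR adjusted p = 0.178 and 0.653). Ephb4 overlaps Zan on the other strand, and since no strand setting of the counting is known, their reads cannot be told apart. The same holds for Epha1 with Zyx and Ephb1 with 9630041A04Rik.

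Epha1, Epha5, Epha6 and Ephb1 were low and uneven between libraries. Epha1 fell by 1.46 ± 0.31 at 48 h and by 1.23 ± 0.39 at 3 h (edgeR adjusted p = 0.000633 and 0.0191), and the 3 h value missed the threshold without C1A (edgeR adjusted p = 0.0586). Its uninjured level was 14, 18.4 and 16.2 CPM in batch 1 and 27 to 78.4 CPM in batches 2 and 3, and within batch 1 the 48 h log2 fold change was -0.34 (edgeR adjusted p = 0.569). Ephb1 fell by 3.16 ± 0.85 at 48 h (edgeR adjusted p = 0.00449), or by 4.47 with the mouse as a block, and had a log2 fold change of -0.87 ± 0.96 at 3 h (edgeR adjusted p = 0.545). Epha5 had counts in 1 of 5 injured 3 h flushes, that of C2C, and in all 9 uninjured flushes, at 5.47 to 80.9 CPM. It fell by 4.63 ± 1.56 at 3 h (edgeR adjusted p = 0.0294), a call that was lost when C1A, C1B, C2A or C3B was left out, and the fitted value was -10.2 without C2C. Epha6 was at 0 in all 5 injured 3 h flushes, at 0 to 0.505 CPM in injured 48 h flushes and at 0 to 16.9 CPM in uninjured flushes. It was at least 14.5-fold lower at 3 h (edgeR adjusted p = 0.0105), and at 48 h it fell by 4.68 ± 1.23 (edgeR adjusted p = 0.00449).

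Plexins, the semaphorin receptors, moved in both directions. Plxna2, a receptor of class 6 semaphorins, had 469.9 to 733.4 CPM in injured 48 h flushes (median 533.7), 2139, 1849, 1629, 928.3 and 1566 CPM in injured 3 h flushes, and 680.2 to 1047 CPM in uninjured flushes (median 830.8). Every 3 h library lay above every 48 h injured one, and 4 of the 5 lay above every uninjured one. Plxna2 rose by 0.95 ± 0.14 at 3 h (edgeR adjusted p = 1.6e-05), fell by 0.57 ± 0.12 at 48 h (edgeR adjusted p = 0.000727), and had a log2 difference of -1.52 ± 0.14 between 48 h and 3 h (edgeR adjusted p = 3.24e-08). Within batches 1, 2 and 3 its change between the injured flushes was -1.87, -1.24 and -1.36, each past the threshold. The 48 h change was -0.53, -0.65 and -0.54 within batches and passed the threshold in none of them.

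Plxna1, a plexin A that binds Sema6d and pairs with neuropilin 1 for class 3 signals, had the opposite order. It had 50.2 to 90.7 CPM in injured 48 h flushes (median 66.4), 17.3, 24, 23.1, 5.35 and 10.1 CPM in injured 3 h flushes, and 9.22 to 59 CPM in uninjured flushes (median 26.3). All 48 h injured libraries lay above all 3 h ones, and the uninjured libraries overlapped both. Plxna1 was higher at 48 h than at 3 h by 2.06 ± 0.36 (edgeR adjusted p = 0.000197) and than in uninjured flushes by 0.97 ± 0.28 (edgeR adjusted p = 0.00651). At 3 h it fell by 1.08 ± 0.35 (edgeR adjusted p = 0.0229), which missed the threshold without C2C or C3B (edgeR adjusted p = 0.0679 and 0.0757). Plxnb2, a receptor of class 4 semaphorins, had 67.2 to 184.3 CPM in injured 48 h flushes (median 82.3), 41.8, 50.3, 41.6, 19.9 and 65.2 CPM in injured 3 h flushes, and 10.7 to 56.5 CPM in uninjured flushes (median 30). All 9 injured 48 h libraries lay above both other flush groups, with E2A the highest. Plxnb2 rose by 1.52 ± 0.28 at 48 h (edgeR adjusted p = 0.000105) and had a log2 fold change of 0.44 ± 0.32 at 3 h (edgeR adjusted p = 0.332). Its rise between 3 h and 48 h of 1.08 ± 0.33 (edgeR adjusted p = 0.0229) missed the threshold without C1A, C2A or C2C.

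Plxnd1, the endothelial receptor of Sema3e, had 112.7 to 257.8 CPM in injured 48 h flushes (median 195.1), 161, 213.8, 174, 200 and 192.6 CPM in injured 3 h flushes, and 120.9 to 201.2 CPM in uninjured flushes (median 145.8). The groups overlapped, and the log2 fold changes were 0.33 ± 0.14 at 48 h and 0.31 ± 0.16 at 3 h (edgeR adjusted p = 0.0603 and 0.173). With the mouse as a block the 48 h value was 0.31 and passed the threshold (edgeR adjusted p = 0.0169), as it did without E2A at 0.40 (edgeR adjusted p = 0.014). Plxna4 fell by 0.53 ± 0.13 at 48 h (edgeR adjusted p = 0.00274). Plxnc1, a receptor of Sema7a, rose by 1.51 ± 0.54 at 48 h (edgeR adjusted p = 0.0276), and without E2A, its highest library at 40.5 CPM, the value was 1.25 and missed the threshold (edgeR adjusted p = 0.0621). Plxna3 passed the threshold at 48 h from counts in 2 of 9 injured libraries, and Plxnb1 had counts in 1 flush only.

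**Figure D2:**
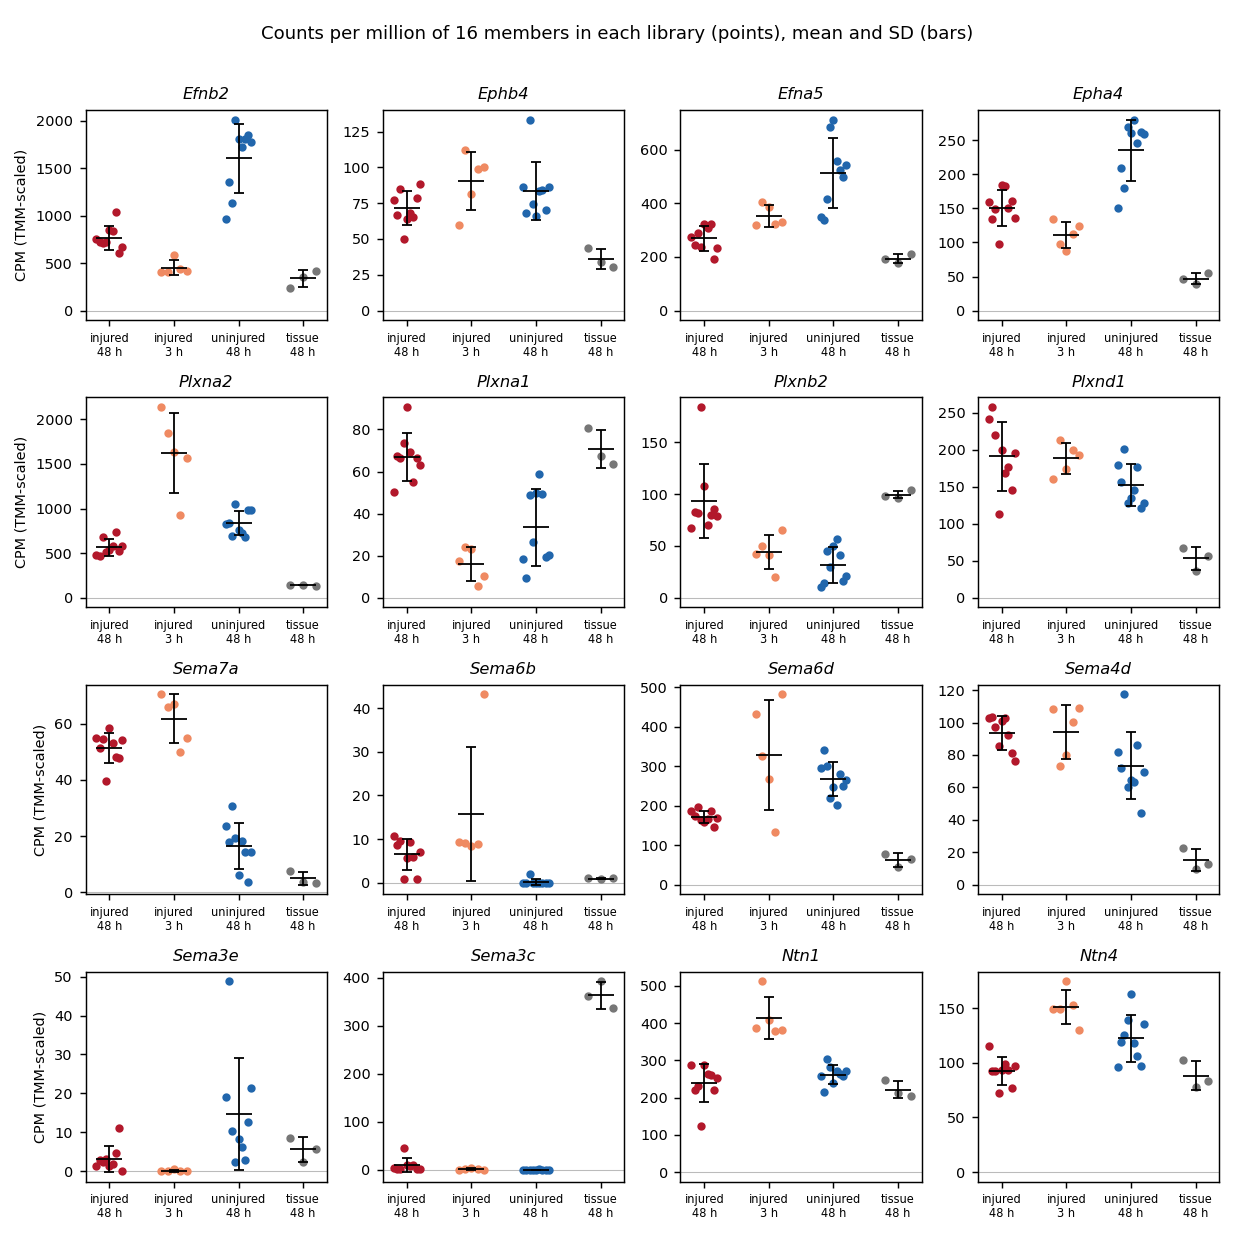
CPM (TMM-scaled, linear axes that differ between panels) of 16 members in each library; points are libraries, the long tick is the group mean and the bar its SD. Efnb2 is lowest in the flushes at 3 h, Plxna2 peaks at 3 h, Plxna1 and Plxnb2 are highest in the flushes at 48 h, and Sema7a is higher in both injured groups than in uninjured flushes.

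Of the membrane semaphorins, which reach neighbouring cells by contact or after shedding, 4 of the 9 tested members rose at both times: Sema7a, Sema6b, Sema4a and Sema4b. Sema7a, a lipid-anchored semaphorin, had 39.7 to 58.4 CPM in injured 48 h flushes (median 53.2), 70.6, 65.9, 67.2, 50.1 and 55.1 CPM in injured 3 h flushes, and 3.61 to 30.7 CPM in uninjured flushes (median 17.9). Every injured library lay above every uninjured one. Sema7a rose by 1.64 ± 0.25 at 48 h (edgeR adjusted p = 1.28e-05) and by 1.90 ± 0.28 at 3 h (edgeR adjusted p = 1.23e-05), and its difference of -0.26 ± 0.28 between 48 h and 3 h did not pass the threshold (edgeR adjusted p = 0.552). Within batches 1, 2 and 3 its log2 fold change was 1.14, 1.78 and 2.20 at 48 h and 1.49, 2.00 and 2.33 at 3 h.

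The other members of this rising group were near the detection limit in uninjured flushes. Sema6b had 0.822 to 10.8 CPM in injured 48 h flushes (median 7.07), 9.3, 9.05, 8.44, 8.8 and 43.2 CPM in injured 3 h flushes, and counts in only 1 uninjured flush, at 2.08 CPM. The 3 h value of C3B was far above the other 4. Sema6b rose by 4.47 ± 0.85 at 48 h (edgeR adjusted p = 0.000189) and by 5.74 ± 0.93 at 3 h (edgeR adjusted p = 3.99e-05), or by 4.93 at 3 h without C3B (edgeR adjusted p = 0.000435). With the mouse as a block the 48 h value was 6.49 (edgeR adjusted p = 0.000368). Sema4a, a class 4 semaphorin known from immune cells, had 5.91 to 18.8 CPM in injured 48 h flushes, 0, 0, 0, 8.8 and 47.8 CPM in injured 3 h flushes, and 0 in all 9 uninjured flushes. It was at least 76.4-fold higher at 48 h and at least 123.5-fold higher at 3 h, where the signal came from C2C and C3B alone. C3B held 189 of the 212 counts at 3 h, and without it Sema4a was at least 18.1-fold higher. Blood cell markers also differed between the libraries. At 3 h, 9 neutrophil markers summed to 1671 CPM in C2C and 5030 CPM in C3B and to 142.9 to 736.8 CPM in the other 3 libraries, and 8 erythroid markers to 3179 and 2601 CPM, against 276 to 793.5 CPM in the other 3. Platelet markers summed to 640.7 CPM in C2C and 1343 CPM in C3B, against 895.9 to 1108 CPM in the other 3. B cell markers gave 300.6 and 113 CPM, against 36.2 to 194 CPM, and T and NK cell markers 187.8 and 88.5 CPM, against 20.3 to 192.7 CPM. At 48 h, where every injured flush held Sema4a, neutrophil markers summed to 112.3 to 594.2 CPM. Macrophage markers in C2C, at 525.5 CPM, lay within the 492.1 to 563.4 CPM of the libraries without Sema4a, and reached 1282 CPM in C3B. Over the groups, 12 macrophage markers summed to 720 to 5772 CPM in injured 48 h flushes, 492.1 to 1282 CPM in injured 3 h flushes and 205.8 to 402.5 CPM in uninjured flushes, and the part of these cells in the result was not tested. Sema4b was at 0 in 6 of 9 uninjured flushes, and the others held 6.47 to 15.1 CPM, against 14.2 to 30 CPM in injured 48 h flushes. It rose by 2.23 ± 0.68 at 48 h and 2.91 ± 0.76 at 3 h (edgeR adjusted p = 0.011 and 0.0053), and by 3.94 at 48 h with the mouse as a block.

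Sema6d, a transmembrane ligand of plexin A receptors, had 147.6 to 195.8 CPM in injured 48 h flushes (median 169.6), 432.4, 325.6, 269, 132.7 and 482.8 CPM in injured 3 h flushes, and 202.2 to 342.1 CPM in uninjured flushes (median 266.3). The 48 h injured libraries all lay below the uninjured ones, while the 3 h libraries spread on both sides. Sema6d fell by 0.63 ± 0.16 at 48 h (edgeR adjusted p = 0.00268), and its log2 difference between 48 h and 3 h was -0.93 ± 0.18 (edgeR adjusted p = 0.000685). At 3 h the log2 fold change was 0.30 ± 0.19 (edgeR adjusted p = 0.249), and without C2C, the lowest library, it was 0.50 and passed the threshold (edgeR adjusted p = 0.0124). Sema4d, the ligand of plexin B1, had 76.3 to 103.6 CPM in injured 48 h flushes (median 97.5), 108.2, 73.4, 80, 100.6 and 108.9 CPM in injured 3 h flushes, and 44.2 to 117.5 CPM in uninjured flushes (median 69.3). Its ranges overlapped, with log2 fold changes of 0.35 ± 0.15 at 48 h and 0.36 ± 0.18 at 3 h (edgeR adjusted p = 0.0652 and 0.144). With the mouse as a block the 48 h value was 0.39 and passed the threshold (edgeR adjusted p = 0.026).

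Class 3 semaphorins, the secreted ligands, gave 1 rise and 2 falls at 48 h among 7 tested. Sema3f, which repels endothelial cells through neuropilin 2, had 28 to 90.5 CPM in injured 48 h flushes (median 68.4), 96.8, 127.7, 114.7, 75.7 and 111.2 CPM in injured 3 h flushes, and 92.6 to 175.4 CPM in uninjured flushes (median 101.7). The 48 h injured and uninjured ranges did not overlap, and E2A was the lowest injured library. Sema3f fell by 0.68 ± 0.16 at 48 h (edgeR adjusted p = 0.00143) and had a log2 fold change of -0.08 ± 0.19 at 3 h (edgeR adjusted p = 0.794). Its log2 difference between 48 h and 3 h was -0.59 ± 0.18 (edgeR adjusted p = 0.0246), a call lost without C1B, C2A or C3B. Sema3g, a class 3 semaphorin of vessels, had log2 fold changes of 0.25 ± 0.34 at 48 h and 1.01 ± 0.39 at 3 h that did not pass the threshold (edgeR adjusted p = 0.561 and 0.0557).

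Sema3e, the ligand of plexin D1, had 0 to 11.1 CPM in injured 48 h flushes (median 2.41), 0, 0, 0.625, 0 and 0 CPM in injured 3 h flushes, and 2.5 to 48.8 CPM in uninjured flushes (median 10.4). All 3 h libraries lay below all uninjured ones. Sema3e fell by 6.61 ± 1.23 at 3 h (edgeR adjusted p = 0.000214), where the group held 2 counts in all. Per total, its summed counts were 88.4 times as high in uninjured flushes as at 3 h, with a 95% counting interval of 24.3 to 733.2. At 48 h it fell by 2.20 ± 0.69 (edgeR adjusted p = 0.0135), or by 1.71 without uninjured library E1B, when it missed the threshold (edgeR adjusted p = 0.0511). It was higher at 48 h than at 3 h by 4.41 ± 1.17 (edgeR adjusted p = 0.00894), or by 7.29 without C2A, the 1 library at 3 h with counts. Sema3c, a ligand of neuropilin and plexin D1 complexes, had 0.914 to 45.9 CPM in injured 48 h flushes (median 4.17), 0, 0.624, 3.44, 2.29 and 0 CPM in injured 3 h flushes, and counts in 1 of 9 uninjured flushes, at 0.835 CPM. All injured 48 h libraries lay above the uninjured ones. Sema3c rose by 5.73 ± 1.06 at 48 h (edgeR adjusted p = 0.000134), and by 4.86 without E2A, its highest library (edgeR adjusted p = 8.39e-05). The wall held it at 336.6 to 392.3 CPM, and smooth muscle and fibroblast markers are abundant in the wall. Smooth muscle markers were also higher in injured than in uninjured flushes, at 2108 to 3239 CPM at 48 h and 2359 to 2912 CPM at 3 h. Uninjured library E2A held 2418 CPM of them and no Sema3c. Injured 48 h library E2A held 2584 CPM of smooth muscle and 10578 CPM of fibroblast markers. The part of these cells in the result was not tested.

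**Figure D3:**
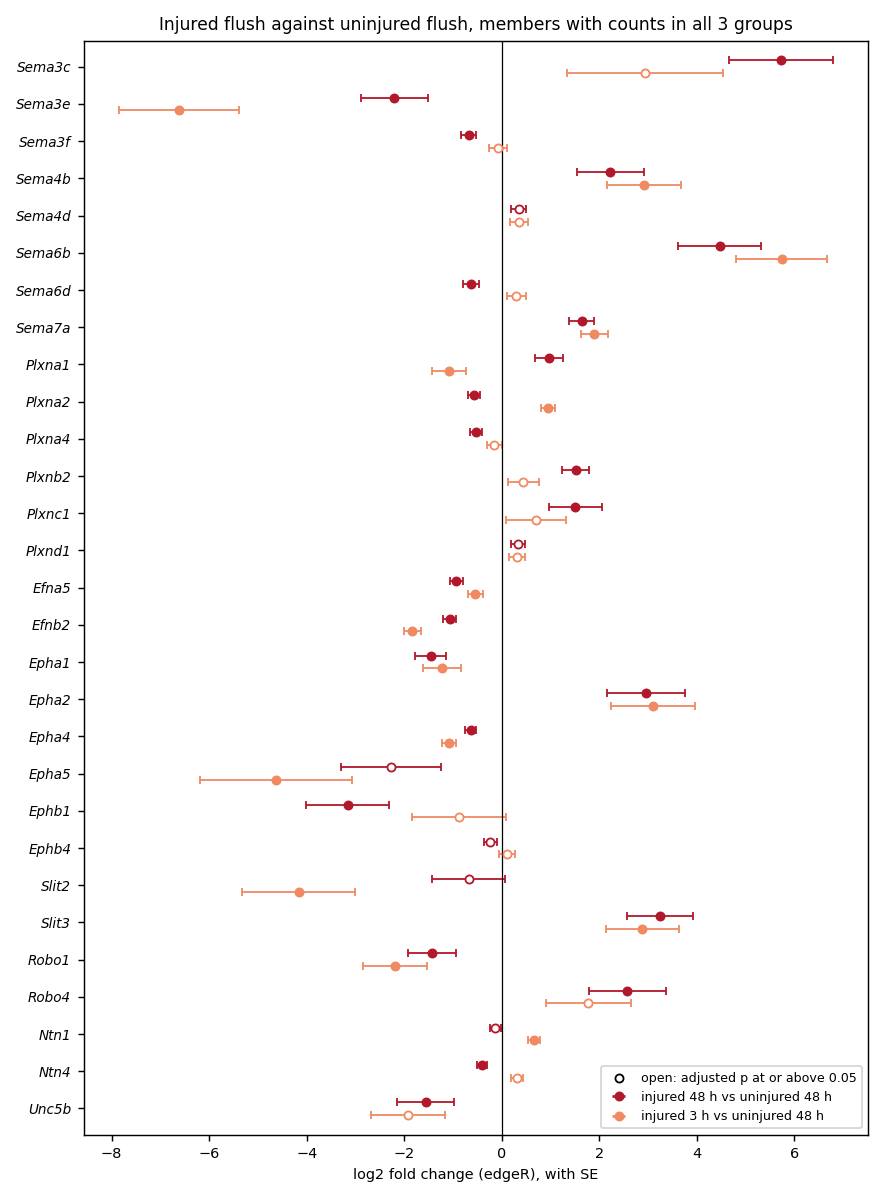
Log2 fold change with its SE (edgeR) of 29 named members in injured 48 h flushes (dark) and injured 3 h flushes (light), each against the same 9 uninjured flushes; filled points passed the threshold and open points did not. Sema3c, Sema4b, Sema6b, Sema7a, Epha2 and Slit3 lie to the right at both times, Efnb2, Efna5, Epha1, Epha4, Robo1 and Sema3e to the left, and Plxna1 and Plxna2 change sides.

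Both tested netrins differed between injured 48 h and injured 3 h flushes. Ntn1, netrin-1, a secreted ligand of Dcc, neogenin and Unc5 receptors, had 122.7 to 288.4 CPM in injured 48 h flushes (median 252.2), 388, 512.5, 407.8, 377.5 and 382.2 CPM in injured 3 h flushes, and 213.6 to 302.5 CPM in uninjured flushes (median 262.2). All 5 libraries at 3 h lay above every other flush. Ntn1 rose by 0.66 ± 0.13 at 3 h (edgeR adjusted p = 0.00042), had a log2 fold change of -0.13 ± 0.11 at 48 h (edgeR adjusted p = 0.341), and had a log2 fold change of -0.79 ± 0.13 at 48 h against 3 h (edgeR adjusted p = 8.73e-05). Within batches 1, 2 and 3 the 3 h change was 0.80, 0.57 and 0.54, none past the threshold. Ntn4, netrin-4, a basement membrane netrin that binds laminin, had 71.9 to 115.7 CPM in injured 48 h flushes (median 93), 149.2, 149.2, 174.7, 152.6 and 130.4 CPM in injured 3 h flushes, and 96.1 to 162.7 CPM in uninjured flushes (median 118.7). The 3 h libraries all lay above the injured 48 h ones. Ntn4 fell by 0.40 ± 0.10 at 48 h (edgeR adjusted p = 0.00247) and had a log2 fold change of -0.71 ± 0.12 at 48 h against 3 h (edgeR adjusted p = 8.83e-05), while its 3 h log2 fold change against uninjured flushes was 0.31 ± 0.12 (edgeR adjusted p = 0.0546).

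Of 3 tested netrin receptors of the Unc5 family, 2 fell at 48 h. Unc5b, an arterial endothelial netrin receptor, had 0 to 22.2 CPM in injured 48 h flushes (median 13), 0, 19.7, 26.6, 4.59 and 1.01 CPM in injured 3 h flushes, and 6.74 to 65.9 CPM in uninjured flushes (median 40). The ranges overlapped, with every injured 48 h library below the uninjured median. It fell by 1.56 ± 0.59 at 48 h (edgeR adjusted p = 0.0363) and had a log2 fold change of -1.93 ± 0.76 at 3 h (edgeR adjusted p = 0.0601). The uninjured values were 6.74, 11.9 and 34.9 CPM in batch 1 and 30.7 CPM or more in batches 2 and 3, and with experimental batch as a covariate the 48 h value was -1.47 and missed the threshold (edgeR adjusted p = 0.0573). Unc5d was at 0 in all 5 injured 3 h flushes, had counts in 1 of 9 injured 48 h flushes and in 8 of 9 uninjured flushes, up to 14.6 CPM. It was at least 21.2-fold lower at 3 h (edgeR adjusted p = 0.0171). At 48 h it fell by 3.35 ± 1.18 (edgeR adjusted p = 0.0272), which missed the threshold without uninjured library E1B (edgeR adjusted p = 0.0568). With the mouse as a block it fell by 6.45.

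Robo and Slit members were of low level in the flush. Robo1, a Slit receptor, had 0 to 17.9 CPM in injured 48 h flushes (median 9.89), 7.19, 4.37, 14.7, 1.15 and 1.01 CPM in injured 3 h flushes, and 11.2 to 43.9 CPM in uninjured flushes (median 23.3). The injured and uninjured ranges overlapped at both times. Robo1 fell by 1.43 ± 0.50 at 48 h (edgeR adjusted p = 0.025) and by 2.19 ± 0.66 at 3 h (edgeR adjusted p = 0.0147), or by 2.94 at 3 h without C2A. Robo4, the endothelial member of the family, moved the other way. It had 6.46 to 22.7 CPM in injured 48 h flushes and 1.15 to 18.7 CPM in injured 3 h flushes. It was at 0 in 6 of 9 uninjured flushes, and those with counts, E1C, E2C and E3A, held 6.51, 5.84 and 8.18 CPM. Robo4 rose by 2.58 ± 0.79 at 48 h (edgeR adjusted p = 0.0109), or by 3.97 with the mouse as a block, and had a log2 fold change of 1.78 ± 0.87 at 3 h (edgeR adjusted p = 0.131). Slit2, a Robo ligand, had 0 to 55.7 CPM in injured 48 h flushes (median 15.8), 0, 0, 8.75, 0 and 0 CPM in injured 3 h flushes, and 0 to 101.1 CPM in uninjured flushes (median 28.4). Counts at 3 h came from C2A alone, and the 48 h groups overlapped. It fell by 4.16 ± 1.16 at 3 h (edgeR adjusted p = 0.0091), and its log2 fold change at 48 h was -0.68 ± 0.75 (edgeR adjusted p = 0.47). Its higher level at 48 h than at 3 h, 3.48 ± 1.13 (edgeR adjusted p = 0.0323), missed the threshold without C1A, C1B, C2C or C3B. Without C2A the 3 h group was at 0, and the fitted values of Slit2 were -10.64 against uninjured flushes and 9.96 between 48 h and 3 h. Slit3 rose by 3.25 ± 0.67 at 48 h and 2.88 ± 0.75 at 3 h (edgeR adjusted p = 0.000415 and 0.00496), with 8.31 to 91.9 CPM in injured 48 h flushes, the highest in E2A, 13.9 to 33.4 CPM in injured 3 h flushes and 0 to 20.3 CPM in uninjured flushes. Within batches 1, 2 and 3 the 48 h change of Slit3 was 0.40, 6.76 and 5.62, past the threshold in batches 2 and 3 and not in batch 1 (edgeR adjusted p = 0.718), which holds the highest uninjured library. It was 4.35 with the mouse as a block and 2.82 without E2A. The 3 h call was lost when only the 2 groups were fitted (edgeR adjusted p = 0.0519). The wall held Slit3 at 394.3 to 481.3 CPM. Summed smooth muscle markers had medians of 2584 CPM in injured 48 h, 2700 CPM in injured 3 h and 1167 CPM in uninjured flushes. Uninjured library E1C, the highest for Slit3, held 912.6 CPM of them. The part of wall cells in the Slit3 result was not tested.

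The uninjured group held the shallowest library. After all libraries were thinned to the smallest total, the 48 h comparison gave 13 higher and 15 lower members, of which 11 and 14 were those called at full depth. Efnb2, Efna5, Epha4, Plxna2, Sema7a, Ntn1 and Ntn4 had counts in every one of the 26 libraries. Uninjured counts of Epha2, Sema4b and Robo4 came only from E1C, E2C and E3A. These were the deepest uninjured libraries, at 3878345 to 5294304 counts, where the others had at most 2369854. Uninjured counts of Sema6b came only from E1C and those of Sema3c only from E2C. Slit3 held 78 of its 88 uninjured counts in E1C. Sema4a, Efnb1 and Plxna3 were at 0 in all uninjured flushes. Thinning evens out totals only, so it cannot show whether uninjured libraries missed these genes at their depth. For all of them, injury and detection cannot be told apart.

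Against the wall of the same abdominal segment, the injured 48 h flush was richer in one set of members and poorer in another. Higher were Efnb2, Efna5, Efna1, Epha4, Ephb4, Plxna2, Plxna4, Plxnd1, Sema3g, Sema4d, Sema6a, Sema6d and Sema7a. Among them Sema7a was higher by 3.39 ± 0.42, with 39.7 to 58.4 CPM in injured 48 h flushes and 7.54, 3.76 and 3.38 CPM in the wall (edgeR adjusted p = 4.38e-07). Sema4d was higher by 2.61 ± 0.25, against 22.9, 9.84 and 13.1 CPM in the wall (edgeR adjusted p = 7.03e-09). Plxna2 was higher by 1.98 ± 0.20, against 145, 146 and 136.8 CPM in the wall (edgeR adjusted p = 1.36e-08). None of these wall libraries reached the flush range. Plxnd1 was higher by 1.84 ± 0.22 and Epha4 by 1.69 ± 0.19 (edgeR adjusted p = 2.58e-07 and 1.31e-07). Ephb4 was higher by 0.99 ± 0.20 and Efnb2 by 1.18 ± 0.21 (edgeR adjusted p = 0.000384 and 6.21e-05), and Efnb2 had 243, 356.2 and 417.8 CPM in the wall, all below the flush range. Efna5, at 191, 177.3 and 210.7 CPM in the wall, passed the threshold with 0.48 ± 0.19 (edgeR adjusted p = 0.0462) but not with the mouse as a block (edgeR adjusted p = 0.0863). Efna1 lost its call with that block too. Both calls were also lost with RLE factors, with no filter on low counts, and when any 1 tissue library was left out. That of Efna1 was lost when only the 2 groups were fitted and after thinning, and that of Efna5 with DESeq2. In the same comparison all 12 endothelial markers were higher and all 12 smooth muscle markers lower in the flush.

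Lower in the flush than in the wall were Sema3c, Sema3d, Sema5a, Slit3, Epha3, Ephb2, Ephb3, Plxnb1, Unc5c and Unc5d. Sema3c had at most 45.9 CPM in injured 48 h flushes, against 361.1, 392.3 and 336.6 CPM in the wall, a log2 difference of -5.35 ± 0.68 (edgeR adjusted p = 6.65e-07), or -6.22 without E2A. Slit3 had at most 91.9 CPM in injured 48 h flushes, against 394.3, 450.1 and 481.3 CPM in the wall, a log2 difference of -3.92 ± 0.67 (edgeR adjusted p = 4.36e-05), or -4.34 without E2A. Sema3d, a class 3 semaphorin, had a log2 fold change of -5.78 ± 1.00 and Sema5a, a transmembrane semaphorin, of -3.21 ± 0.63 (edgeR adjusted p = 5.62e-05 and 0.000225). For all 4 the flush and wall ranges did not overlap, and the flush of E2A held 405.5 CPM of Sema5a, where the other 8 held 16 to 38.4 CPM. Without E2A the log2 difference of Sema5a from the wall was -4.53, and its log2 fold change against uninjured flushes was -0.69 and past the threshold (edgeR adjusted p = 0.0143), where with E2A it was 0.62 ± 0.51 (edgeR adjusted p = 0.328). Sema3b and Sema3a were not called against the wall, where they had 34.5 to 41.9 and 88.3 to 105.2 CPM. The flush of E2A held 12.8 and 48.5 CPM, and the other 8 held 0 and 0 to 17.5 CPM. Without E2A both were called lower (edgeR adjusted p = 0.000174 and 0.00725). Both were also called when only the 2 groups were fitted and after thinning, but not with DESeq2 or with the mouse as a block. Ephb2 and Ephb3, receptors of B ephrins, were at 0 in every flush and at 5.67 to 9.61 and 2.92 to 5.41 CPM in the wall, at least 198.5-fold and at least 105.9-fold lower in injured 48 h flushes. Their calls and that of Plxnb1 were lost with the mouse as a block. Sema6b, Sema4b, Robo4 and Epha2 had log2 fold changes of 2.70 ± 1.14, 1.00 ± 0.95, 2.66 ± 1.23 and 2.71 ± 1.21 against the wall that did not pass the threshold (edgeR adjusted p = 0.0667, 0.462, 0.0948 and 0.0822). Each passed when only the 2 groups were fitted (edgeR adjusted p = 0.0132, 0.00262, 0.000813 and 0.0144). Sema6b, Robo4 and Epha2 also passed with DESeq2, and Sema6b and Epha2 without E2A. Ntn1, Ntn4, Sema3f, Plxna1 and Plxnb2 had log2 fold changes between -0.10 and 0.11 against the wall, with none past the threshold.

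**Figure D4:**
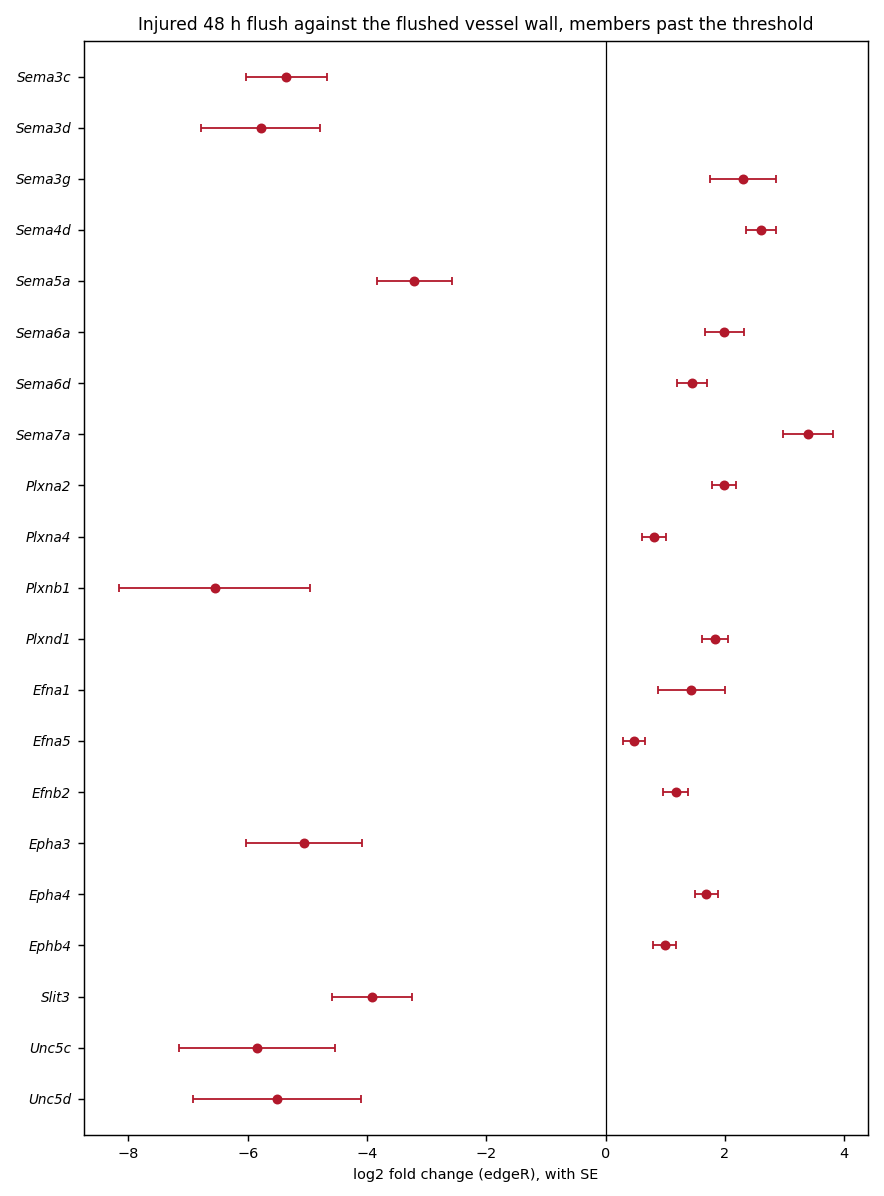
Log2 fold change with its SE (edgeR) of injured 48 h flushes against the flushed wall, for the 21 members that passed the threshold and had counts in both groups. Points right of 0 are higher in the flush, led by Sema7a and Sema4d, and points left of 0 are higher in the wall, among them Sema3c, Sema3d, Slit3 and Unc5c.

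Co-receptors and other guidance cues outside the 65 were read from a list of 14 genes, 11 of them tested. At 48 h 3 rose (27.3%, against 24.6% of all genes) and 3 fell (27.3%, against 18.0%) relative to uninjured flushes. At 3 h 2 rose (18.2%, against 16.1%) and 4 fell (36.4%, against 11.1%). Neuropilin 1 (Nrp1), the co-receptor of class 3 semaphorins and VEGF, fell at both times, to 542.8 ± 79.7 CPM in injured 48 h flushes (n = 9) and 412 ± 126.5 CPM in injured 3 h flushes (n = 5), against 1382 ± 233.3 CPM in uninjured flushes (SD, n = 9). Its log2 fold change at 3 h was -1.75 ± 0.18 (edgeR adjusted p = 4.2e-08). Neuropilin 2 (Nrp2) averaged 71.8 ± 49.3 CPM in injured 48 h flushes and 33.3 ± 17.9 CPM in injured 3 h flushes, against 2.5 ± 6.99 CPM in uninjured flushes, and rose by 4.63 ± 0.78 and 3.53 ± 0.83 (edgeR adjusted p = 4.89e-05 and 0.00216). Boc, a co-receptor of the hedgehog pathway that also takes part in guidance, fell by 1.37 ± 0.34 at 48 h and by 2.52 ± 0.46 at 3 h (edgeR adjusted p = 0.00263 and 0.000195). Neo1, the netrin receptor neogenin, averaged 45.1 ± 106.8 CPM in injured 48 h flushes and 549 ± 88.9 CPM in the wall, a log2 difference of -3.66 ± 0.90 (edgeR adjusted p = 0.0021). The SD of Neo1 in injured 48 h flushes exceeded its mean, so the libraries were very uneven, and its value without E2A is not given here.

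Intracellular effectors were read from a list of 40 genes, 38 of them tested. At 48 h 11 rose (28.9%, against 24.6% of all genes) and 7 fell (18.4%, against 18.0%), shares near those of all genes. At 3 h 10 rose (26.3%, against 16.1%) and 6 fell (15.8%, against 11.1%), and the median log2 fold changes were 0.26 at 48 h and 0.01 at 3 h. Dpysl3, a collapsin response mediator protein, averaged 239.7 ± 74.8 CPM in injured 48 h flushes and 162.6 ± 85.2 CPM in injured 3 h flushes, against 13.8 ± 8.78 CPM in uninjured flushes, and rose by 4.10 ± 0.32 and 3.54 ± 0.34 (edgeR adjusted p = 9.25e-10 and 2.53e-08). Mical2, an actin-oxidising enzyme of the family that acts below plexins, averaged 416.7 ± 44.7 CPM in injured 48 h flushes and 890.7 ± 131.3 CPM in injured 3 h flushes, against 1083 ± 200.4 CPM in uninjured flushes. It fell by 1.38 ± 0.10 at 48 h (edgeR adjusted p = 3.64e-10) and had a log2 fold change of -0.28 ± 0.12 at 3 h (edgeR adjusted p = 0.085). Rnd1, a small GTPase that binds plexins, rose by 2.15 ± 0.51 at 48 h and 3.47 ± 0.57 at 3 h (edgeR adjusted p = 0.00148 and 4.64e-05). Dpysl2, the relative of Dpysl3, fell by 0.31 ± 0.07 and 0.42 ± 0.09 (edgeR adjusted p = 0.00131 and 0.000636).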

How the data were processed

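The authors deposited a table of gene counts for 26 libraries. Per the submitters' processing notes, tools were HISAT2 2.0.3, HTSeq and DESeq2 1.14.1 with build GRCm38 (roles not stated there), and the strand setting is not given in the sources used here. The other 8 deposited tables were not used. The 3 h columns carry 0 h in the table's header, and the labels' 3 h was followed. Counts were tested with edgeR 4.0.16 (R 4.3.3; quasi-likelihood, TMM scaling, filterByExpr, all 26 libraries in 1 fit without covariates), with Benjamini-Hochberg adjustment over 13884 genes and a threshold of 0.05. CPM are TMM-scaled, and per-kb values use GENCODE M21 exon unions. The fit was tested on simulated data. Floors are 3 counts over a group, and counting intervals (95%) cover counting error only. Segments of 1 mouse carry the same mouse name in the labels, which is where the pairing comes from. The correlation of their deviations was -0.127 to 0.207 between injured and uninjured flushes and 0.014 to 0.134 between flush and tissue. The replicate unit is the mouse. Alternatives were DESeq2 1.42.0, RLE factors, no filter, batch, mouse block, thinning to the smallest total and left-out libraries, of which leaving out E2A across comparisons was added after seeing the data. Members given in full were the 6 with the smallest p in each comparison and the member of each role with the highest CPM per kb in uninjured flushes, and others past the threshold against uninjured flushes were named from a mean of 2 CPM in the higher group. Further members and list genes named were chosen after their values were seen. Members and lists were chosen with earlier results of these data known.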

Additional observations from a re-analysis of the deposited data

Results flagged for a closer look

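In 26 of 93 groups of the named members, 1 library stood far from the rest of its group, where chance flags about 1 in 20 groups of normally distributed values. In 6 of the 26 every other library of the group was at 0, so any count there is flagged and that rate does not apply. The injured 48 h library of E2A gave 7 of them. In it Plxnb2 had 184.3 CPM where the next library had 107.7 CPM, Sema3c 45.9 CPM against 10.8, Sema4a 18.8 CPM against 11.8 and Slit3 91.9 CPM against 38.2. It was the lowest library for Epha2 at 0 CPM where the next had 14.5, for Ntn1 at 122.7 CPM where the next had 220.3, and for Sema3f at 28 CPM where the next had 62.5. Among the other injured 48 h libraries, Epha5 had 21.3 CPM in E3A where the next had 9.06, Sema3e had 11.1 CPM in E3B where the next had 4.75, and Unc5d had 3.56 CPM in E2C where the others had 0.

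In the injured 3 h flushes, C2A stood above the rest for Efnb2 at 589.9 CPM where the next had 434.9, for Sema3e at 0.625 CPM and for Slit2 at 8.75 CPM, both 0 elsewhere. C3B stood above the rest for Sema4a at 47.8 CPM where the next had 8.8 and for Sema6b at 43.2 CPM where the next had 9.3. Ntn1 had 512.5 CPM in C1B where the next had 407.8, and Epha5 had 4.97 CPM in C2C and 0 elsewhere.

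In the uninjured flushes, E1C stood above the rest for Ephb4 at 133.2 CPM where the next had 86.5, for Sema3f at 175.4 CPM where the next had 116.7, for Slit3 at 20.3 CPM where the next had 1.07, and for Sema6b at 2.08 CPM, 0 elsewhere. E1A did so for Epha5 at 80.9 CPM where the next had 29.8 and for Slit2 at 101.1 CPM where the next had 36.5. Sema3e had 48.8 CPM in E1B where the next had 21.4, Plxnc1 14.6 CPM in E2A where the next had 7.9, and Sema3c 0.835 CPM in E2C and 0 elsewhere.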

How the results depend on the processing

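No called value of a member named by the rule given above changed sign in these alternatives. Sema4a at 3 h had no direction within batch 1, where it was at 0 in both groups. Sema5a is not named by that rule. Its log2 fold change at 48 h against uninjured flushes was 0.62 and not called, and -0.69 and called without E2A. With DESeq2 it was called lower too. Over the members named by the rule and the alternatives, 1583 values stayed on their side of the threshold, 164 lost a call and 31 gained one. In fits within batches 1, 2 and 3, which hold few libraries each, 3, 5 and 6 members were higher and 4, 6 and 6 lower in injured 48 h than in uninjured flushes. Against uninjured flushes, 2, 4 and 6 were higher at 3 h in batches 1, 2 and 3, and 2, 4 and 2 were lower in batches 1, 2 and 3. Between 48 h and 3 h injured flushes, 1, 2 and 0 were higher within batches 1, 2 and 3, and 4, 2 and 2 were lower. Against tissue, 8, 9 and 10 were higher and 4, 4 and 4 lower in batches 1, 2 and 3. Fitting only the 2 injured groups left 5 members higher at 48 h than at 3 h, and leaving out 1 injured 3 h library at a time left 4 to 7. Against tissue, 16 members were lower with no filter on low counts and 6 with DESeq2. With the mouse as a block, 15 were higher and 17 lower in injured 48 h than in uninjured flushes, and 11 higher and 7 lower than in tissue; the members whose call it changed are Plxna3, Epha3, Plxnd1, Sema4d, Epha5 and Sema6a against uninjured flushes, and Efna1, Efna5, Ephb2, Ephb3 and Plxnb1 against tissue. Without E2A, 12 were higher and 16 lower against uninjured flushes, 7 and 5 against injured 3 h flushes, and 15 and 12 against tissue. The cause was not tested.

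The depth of the flushes limits members below a few CPM, where a group at 0 gives only a bound. Segment and injury cannot be told apart, and the 3 h mice are not those of 48 h. The main fit has no batch or mouse term. Its p-values measure the spread between libraries of a group, with batches pooled, and treat segments of the same mouse as independent.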
